A study of Drosophila melanogaster with 27 samples.

Results

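The IMP genes are ecdysone-inducible genes that were first isolated from *Drosophila* imaginal discs as RNAs on membrane-bound polysomes, so that many of their products are secreted or lie at the cell surface. Those of the E series (*ImpE1*, *ImpE2*, *ImpE3*) were named early and those of the L series (*ImpL1*, *ImpL2*) late for their response to 20-hydroxyecdysone (20E), the molting steroid, in cultured discs. A late larval 20E pulse triggers puparium formation, and imaginal discs then elongate and evert into legs and wings. A prepupal pulse follows and triggers head eversion. The question here was when each IMP gene is expressed between the late larva and the pupa.

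Probe sets were chosen by annotation, as those with *ImpE1*, *ImpE2*, *ImpE3*, *ImpL1* or *ImpL2* as their only gene symbol. This gave 7 probe sets for 5 genes, out of 13966 probe sets and 10844 genes with a probe set of their own. *ImpE1* had 2 (148398_at and 148399_at), *ImpE3* had 2 (151012_at and 153745_at), and *ImpE2* (153951_at), *ImpL1* (141386_at) and *ImpL2* (141688_at) had 1 each. RNA came from whole *w1118* animals staged at -18 and -4 h from pupariation (larvae of the last instar), at 0, 2, 4, 6, 8 and 10 h (prepupae) and at 12 h (pupae), and larvae were staged with 0.05% bromophenol blue in the food, as wandering animals whose guts were dark blue (-18 h) or clear (-4 h). Each of the 9 stages had 3 arrays, and each sample held RNA of 10 animals, with no mutation or treatment setting the stages apart beside the *w1118* background that all share. In RNA from whole animals, fewer cells of a type and less RNA per cell cannot be told apart, and nothing measured here places the transcripts in discs.

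The 27 arrays had medians between 249.4 and 277.3 on a linear intensity scale. A floor was set at 60.26, the 10th percentile over the whole table, and 8.81 to 10.8% of an array lay at or under it. A level is set only against other levels of its own probe set, because probe sets differ in how much signal a given amount of RNA yields. A change was called with limma at an adjusted p under 0.1 and at least 1.5-fold, and changes are given as the later over the earlier stage with their standard error (SE) in log2 units. The larval arrays -18 h replicate 2 and -4 h replicate 1 stood apart, with an SD of 0.459 and 0.405 (log2) around their stage means over all tested probe sets against 0.0803 to 0.318 in the other 25 arrays. Calls of *ImpL1*, the gene they touch most, are therefore given with and without them.

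All 5 genes were measured through at least 1 tested probe set, and 6 of the 7 probe sets entered the tests. The exception was *ImpE3* 151012_at, which lay between 10.87 and 31.4 with a median of 20.65 over the 27 arrays, below the floor in every one. It carries no course of its own, and *ImpE3* is described from 153745_at alone. The 162 values of the 6 tested probe sets ran from 103 to 9879, all above the floor. All 6 changed over the 9 stages (limma F-test, range of stage means at least 1.5-fold), as did 49.5% of the 12854 tested probe sets. Their ranges differed widely, at 30.4-fold for *ImpL1*, 17.2-fold for *ImpE2*, 11.8-fold for *ImpE3*, 3.52-fold for *ImpL2*, and 2.08- and 1.83-fold for the *ImpE1* probe sets. The *ImpL1* range depends on single larval arrays, at 4.93 on the log2 scale with all arrays, 5.61 without -18 h replicate 2 and 5.56 without -4 h replicate 1.

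**Figure D1:**
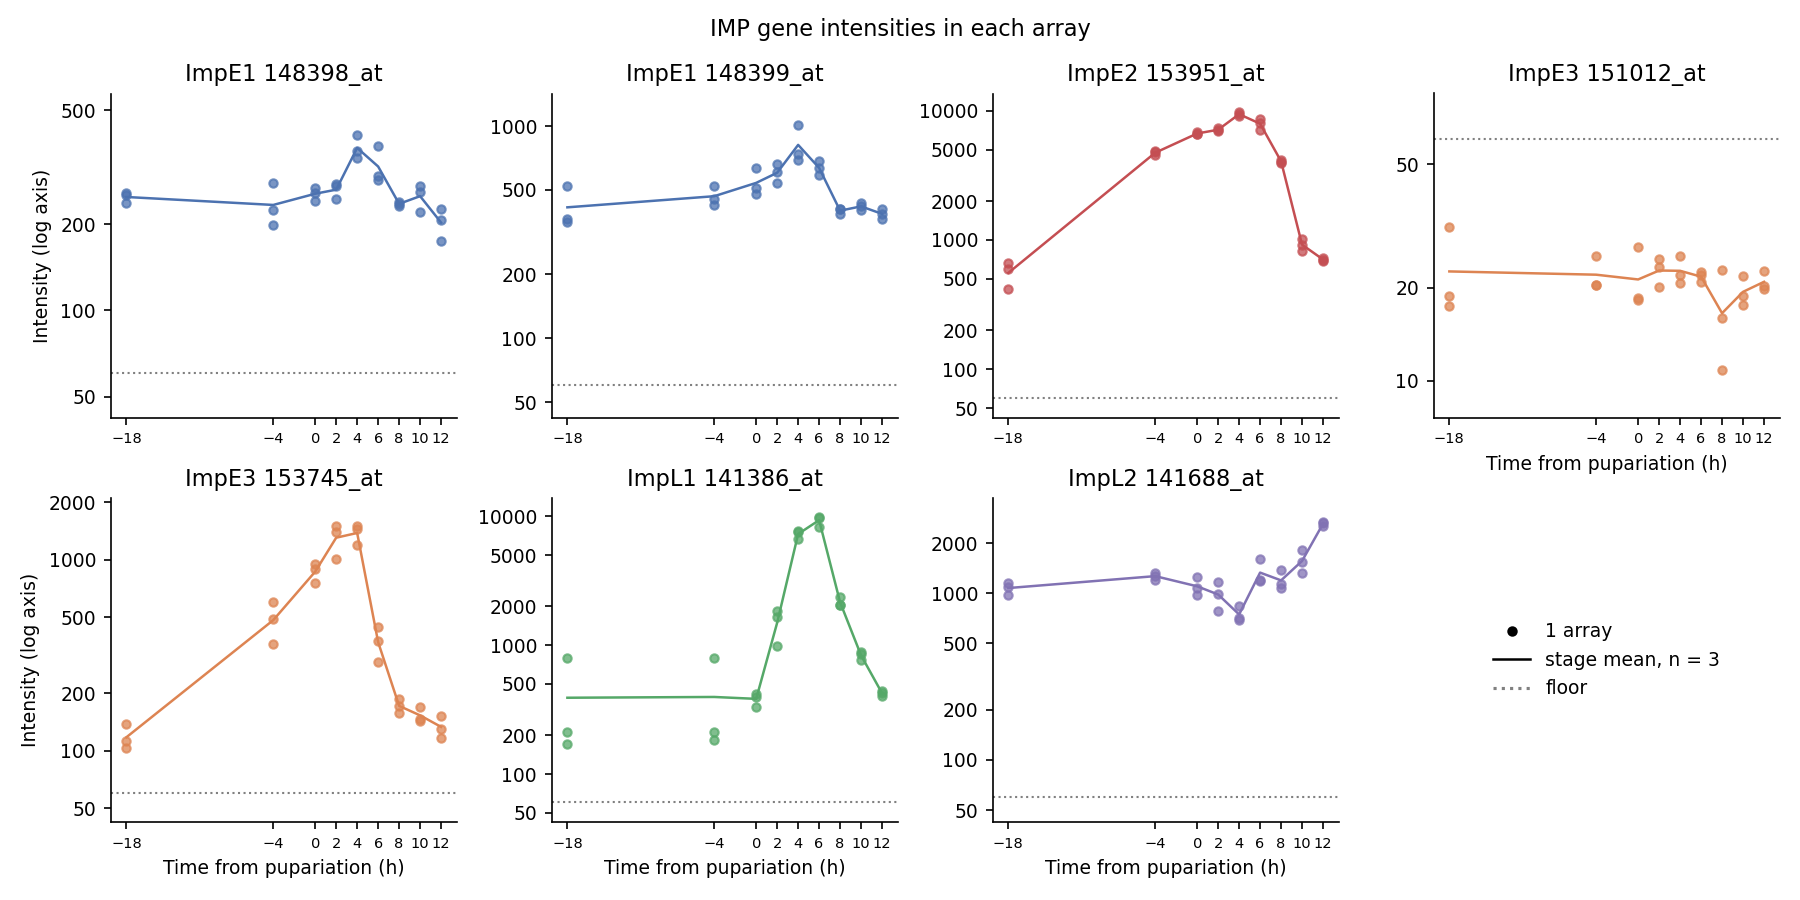
Intensity of each IMP probe set in each array (log axis) against hours from pupariation. Points are arrays, lines join stage means of 3 arrays, and the dotted line is the floor of 60.26. *ImpE2* and *ImpE3* 153745_at have their highest stage mean at 4 h, *ImpL1* at 6 h and *ImpL2* at 12 h, and *ImpE3* 151012_at stays below the floor.

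*ImpE2*, whose product is secreted from the apical surface of disc cells, was high from the late larva to the 8 h prepupa. Its intensities were 659, 418 and 592 at -18 h, and 4508, 4839 and 4828 at -4 h. At 0 h they were 6599, 6546 and 6823, and at 2 h they were 7119, 6959 and 7277. All arrays from -4 to 2 h lay above all arrays of -18 h, with a tight spread within each stage. The highest values came at 4 h, with 9691, 9107 and 9363, followed by 8618, 7075 and 8090 at 6 h. Intensities were 4174, 3957 and 4036 at 8 h, 1012, 826 and 919 at 10 h, and 705, 692 and 721 at 12 h. The gene was thus high in all prepupal arrays up to 8 h and low in those of 10 and 12 h, and the 12 h arrays lay just above those of -18 h.

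In limma, *ImpE2* rose 8.64-fold at -4 h against -18 h (SE 0.12, adjusted p = 1e-14), the 21st largest of all increases at that step. It stood 1.41-fold higher at 0 h than at -4 h (adjusted p = 0.0089), which is short of the 1.5-fold limit. The decline came in 2 called steps. *ImpE2* fell 1.95-fold at 8 h against 6 h (SE 0.12, adjusted p = 2.6e-06) and 4.43-fold at 10 h against 8 h (SE 0.12, adjusted p = 8.1e-12), the 33rd largest decrease of that step. From the highest to the lowest stage the order was 4, 6, 2, 0, -4, 8, 10, 12 and -18 h. Of the 8 pairs next to each other in it, 8 and 10 h alone differed by the call. At -4 h the mean was already 50.3% of that at 4 h, and at 10 h it was 9.79%.

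*ImpE3*, which encodes another apically secreted disc protein, was called higher at the same first step, and its fall after the 4 h peak was called at an earlier step, 6 h against 4 h. Intensities of 153745_at were 112, 137 and 103 at -18 h, 360, 488 and 600 at -4 h, and 949, 894 and 754 at 0 h. At 2 h they were 1501, 1005 and 1404, and at 4 h they were 1494, 1451 and 1196. The arrays of -18, -4 and 0 h did not overlap with each other, while those of 2 and 4 h did. Later values were 376, 293 and 442 at 6 h, 187, 171 and 158 at 8 h, 170, 146 and 143 at 10 h, and 153, 117 and 130 at 12 h. From 8 h on the levels were close to those of the -18 h larvae.

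*ImpE3* rose 4.04-fold at -4 h against -18 h (SE 0.18, adjusted p = 3e-08) and 1.82-fold at 0 h against -4 h (SE 0.18, adjusted p = 0.0038). In a fit to the 6 arrays of -4 and 0 h alone the second of these calls was lost (adjusted p = 0.11). Its 1.49-fold difference between 2 and 0 h missed the limits (adjusted p = 0.13), although the arrays did not overlap, but it was called with array weights (adjusted p = 0.00039), when quantile normalization was used (0.041) and in a fit that left out 2 h replicate 2 (0.04). The gene then fell 3.76-fold at 6 h against 4 h (SE 0.18, adjusted p = 1.9e-07), the 10th largest of all decreases at that step, and 2.13-fold at 8 h against 6 h (SE 0.18, adjusted p = 0.00022). The order of its stages was 4, 2, 0, -4, 6, 8, 10, 12 and -18 h. Neighbours differed only between 0 and -4 h and between 6 and 8 h. At 6 h *ImpE3* stood at 26.8% of its highest stage mean and *ImpE2* at 84.5%.

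*ImpE1*, whose predicted product carries cysteine-rich repeats like those of the LDL receptor, changed least in the E series. Probe set 148399_at read 353, 524 and 365 at -18 h, 737, 1017 and 691 at 4 h, and 366, 386 and 405 at 12 h. Probe set 148398_at read 237, 258 and 252 at -18 h, 409, 340 and 360 at 4 h, and 207, 176 and 226 at 12 h. In both, the arrays of 4 h lay above those of -18 and 12 h, and both had their highest stage mean at 4 h and their lowest at 12 h. The stage means of the remaining stages lay between 399 and 635 for 148399_at, and between 234 and 318 for 148398_at.

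Among the 8 steps, *ImpE1* was called once, with 148399_at, which fell 1.59-fold at 8 h against 6 h (SE 0.15, adjusted p = 0.0045). The values of 148398_at at that step were 1.34-fold lower (adjusted p = 0.046), and at 4 h against 2 h they were 1.4-fold higher (adjusted p = 0.035), both short of the fold limit. Over wider intervals the 4 h level of 148399_at was 1.97-fold that at -18 h (adjusted p = 1.4e-05), and its 12 h level was 2.08-fold lower than that at 4 h (adjusted p = 1.2e-05). Of the 36 pairs of stages, 11 were called with 148399_at and 4 with 148398_at. No neighbours in the order of stages of either probe set differed by the call. The 2 probe sets share the gene and are no independent measurements of it. Their stage means correlated with r = 0.90 (rho = 0.90, 9 stages).

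*ImpL1*, the gene with the widest range, was low until pupariation and then increased steeply. It read 172, 789.5 and 211 at -18 h, 793, 185 and 211 at -4 h, and 416, 399 and 334 at 0 h. The high readings are those of the arrays that stood apart, -18 h replicate 2 and -4 h replicate 1, while the other 4 larval arrays lay between 171.72 and 210.74, below all 3 arrays of 0 h. At 2 h the values were 1665, 982 and 1829, at 4 h 7509, 6631 and 7698, and at 6 h 9879, 8317 and 9774. No array of 2, 4 or 6 h overlapped with an array of an earlier stage. Afterwards *ImpL1* read 2357, 2034 and 2065 at 8 h, 878, 855 and 765 at 10 h, and 426, 400 and 444 at 12 h, again with no overlap between consecutive stages.

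With all arrays *ImpL1* rose 3.78-fold at 2 h against 0 h (SE 0.44, adjusted p = 0.013), the 7th largest increase of all probe sets at that step, and 5.04-fold at 4 h against 2 h (SE 0.44, adjusted p = 0.0018), the 14th largest. It fell 4.33-fold at 8 h against 6 h (SE 0.44, adjusted p = 0.0024) and 2.58-fold at 10 h against 8 h (SE 0.44, adjusted p = 0.068). The last call was lost when any of the 6 arrays of 8 and 10 h was left out (adjusted p = 0.14 to 0.21), with no filter on low values (0.1) and under quantile normalization (0.14). From 0 to 6 h the whole increase was 24.4-fold (adjusted p = 3.2e-08). By mean log2 intensity the order of stages was 6, 4, 8, 2, 10, 12, 0, -4 and -18 h, while by mean intensity 0 h was lowest (383, against 391 at -18 h and 396 at -4 h). Of the neighbours 4 and 8 h alone differed by the call.

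The standard error of 0.44 contains the spread of the larval arrays, since all stages share 1 estimate per probe set. Without -18 h replicate 2 and -4 h replicate 1 it was 0.16, and the calls at 2, 4, 8 and 10 h were made with adjusted p = 1e-07, 2.7e-09, 2.9e-09 and 2.4e-06. Further changes were called there. *ImpL1* was then higher at 0 h than at -4 h by 0.95 (log2; SE 0.18, adjusted p = 0.0013), lower at 12 h than at 10 h (log2 change -0.97, adjusted p = 2e-04) and higher at 12 h than at -18 h by 1.15 (adjusted p = 2.4e-05). With all arrays the log2 changes of these comparisons were 0.28 (adjusted p = 0.68), -0.97 (0.26) and 0.47 (0.39).

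**Figure D2:**
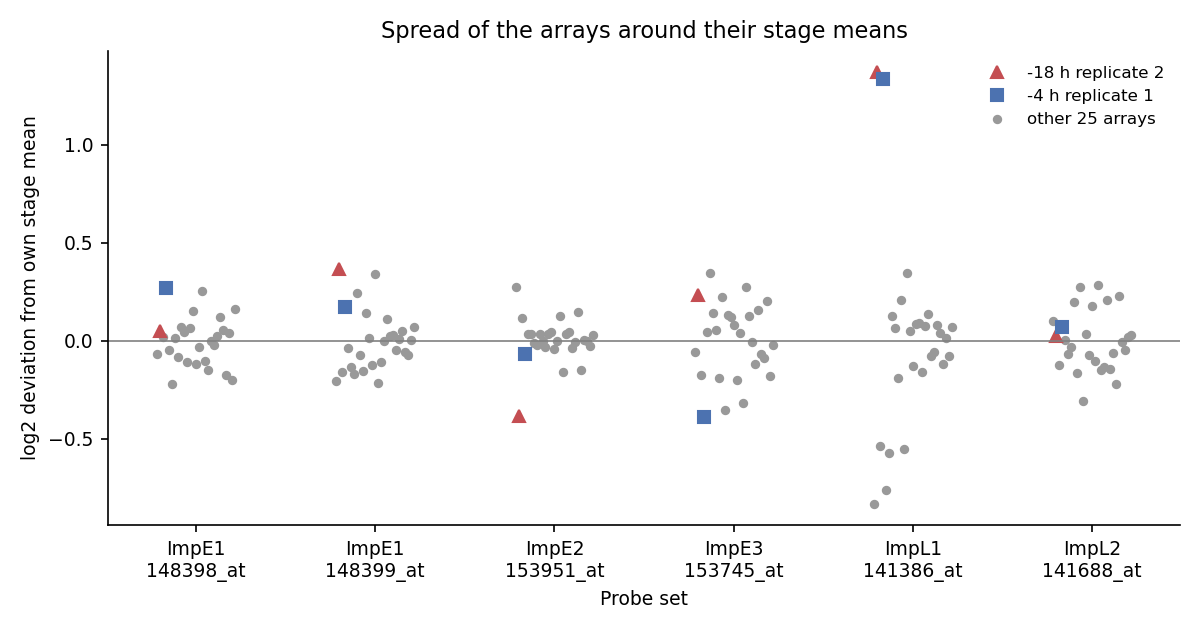
Deviation of each of the 27 arrays from the mean of its own stage (log2), for the 6 tested probe sets. Triangles mark -18 h replicate 2 and squares -4 h replicate 1, which deviate by 1.37 and 1.34 for *ImpL1* and by less than 0.4 in either direction for the other probe sets.

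Array -18 h replicate 2 also had the lowest *ImpE2* value of its stage (418) and the highest of *ImpE3* (137) and of *ImpE1* 148399_at (524). Array -4 h replicate 1 had the lowest *ImpE3* value of its stage (360). Neither changed a call of *ImpE2* or *ImpE3* at -4 h against -18 h when left out. The part of whatever sets these arrays apart in the *ImpL1* values was not tested.

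*ImpL2* encodes a secreted immunoglobulin-family protein that binds insulin-like peptides and antagonises insulin signalling. Its course ran apart from that of the other members. Intensities were 1151, 1093 and 984 at -18 h, 1330, 1269 and 1208 at -4 h, and 1073, 1257 and 977 at 0 h. At 2 h they were 1174, 785 and 994, and at 4 h, when the E genes were highest, 708, 841 and 692. The 4 h arrays were the lowest on average and overlapped with those of 2 h. Values were 1607, 1187 and 1202 at 6 h, 1374, 1077 and 1138 at 8 h, 1330, 1818 and 1547 at 10 h, and 2536, 2653 and 2666 at 12 h. All 3 pupal arrays lay above the 24 earlier ones.

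*ImpL2* rose 1.77-fold at 6 h against 4 h (SE 0.15, adjusted p = 0.00099) and 1.69-fold at 12 h against 10 h (SE 0.15, adjusted p = 0.0017). Over the whole course its 12 h level was 2.44-fold that at -18 h (adjusted p = 3.7e-07). The order of its stages was 12, 10, 6, -4, 8, 0, -18, 2 and 4 h, and of the neighbours 12 and 10 h alone differed by the call. At 4 h its mean was 28.5% of that at 12 h, and at the other stages from -18 to 10 h it was 37.6 to 59.8%. Pearson correlations of its stage means with those of the other 5 probe sets lay between -0.38 and -0.73 over 9 stages. By rank (Spearman's rho) they lay between -0.07, with *ImpL1*, and -0.60, with *ImpE3*. They are given as a description of points that share their arrays.

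**Figure D3:**
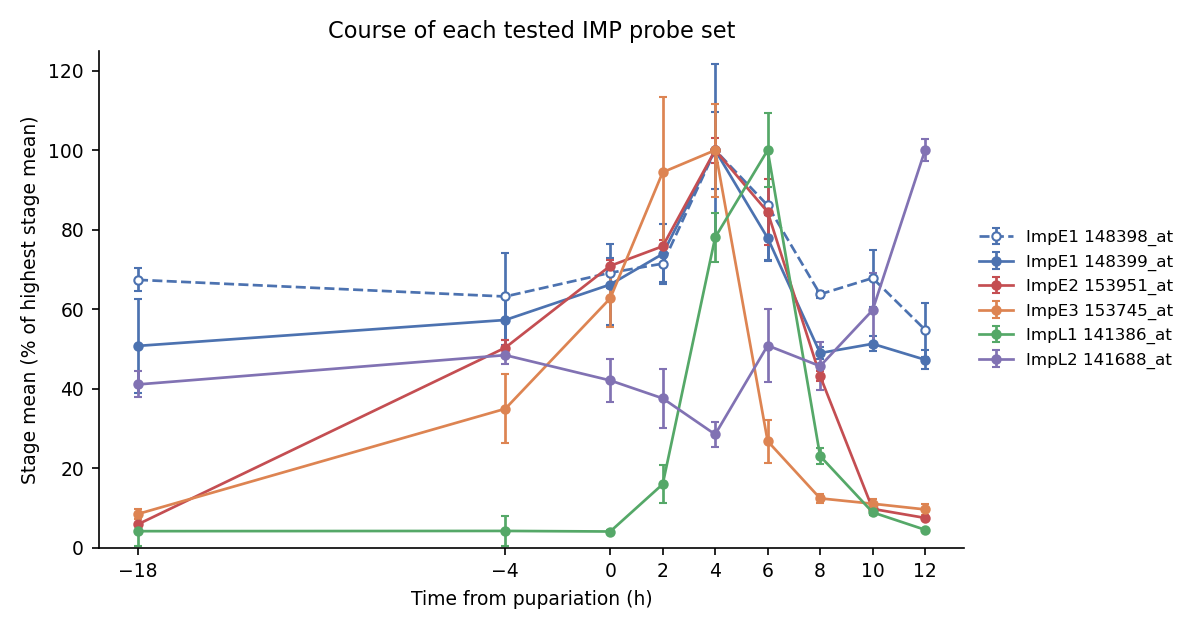
Stage means of the 6 tested probe sets as a percentage of their own highest stage mean, against hours from pupariation. Error bars are the SD of 3 arrays. At -4 h *ImpE2* stands at 50.3% and *ImpL1* at 4.25%, and at 8 h *ImpE2* stands at 43.2% and *ImpE3* at 12.4%.

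Set side by side, the members took up their changes in a staggered order. At -4 h against -18 h, 2 of the 6 probe sets were called, *ImpE2* and *ImpE3*, both higher, against 13.5% of all tested probe sets (9.86% higher). The median log2 change was 0.22 for the members and 0.01 for all probe sets. Over all probe sets 1267 were higher and 470 lower at this step, and under quantile normalization 1015 and 644. At 0 h against -4 h, 1 was called, *ImpE3*, against 7.98% of all (4.61% higher; medians 0.24 and -0.04).

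At 2 h against 0 h and at 4 h against 2 h, *ImpL1* was the 1 member called, against 2.64% and 2.75% of all probe sets. Increases made up 0.786% and 1.49% of all probe sets at these steps, and the median of the members was 0.13 and 0.41. At 6 h against 4 h, 2 were called, *ImpE3* lower and *ImpL2* higher, against 3.33% of all (1.87% higher, 1.46% lower). The members' median was -0.24 and that of all probe sets -0.0035.

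The step with most called members was 8 h against 6 h. There 4 of 6 fell, *ImpL1*, *ImpE3*, *ImpE2* and *ImpE1* 148399_at, against 5.26% of all probe sets called and 1.55% called lower. The median log2 change of the members was -0.81 and that of all probe sets 0.0066, while 477 probe sets were higher and 199 lower at this step (396 and 267 under quantile normalization). At 10 h against 8 h, 2 fell, *ImpE2* and *ImpL1*, against 5.41% (3.38% lower), and at 12 h against 10 h 1 was called, *ImpL2*, against 4.88% (1.98% higher). Consecutive steps share the arrays of the stage between them, so their counts are not independent.

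**Figure D4:**
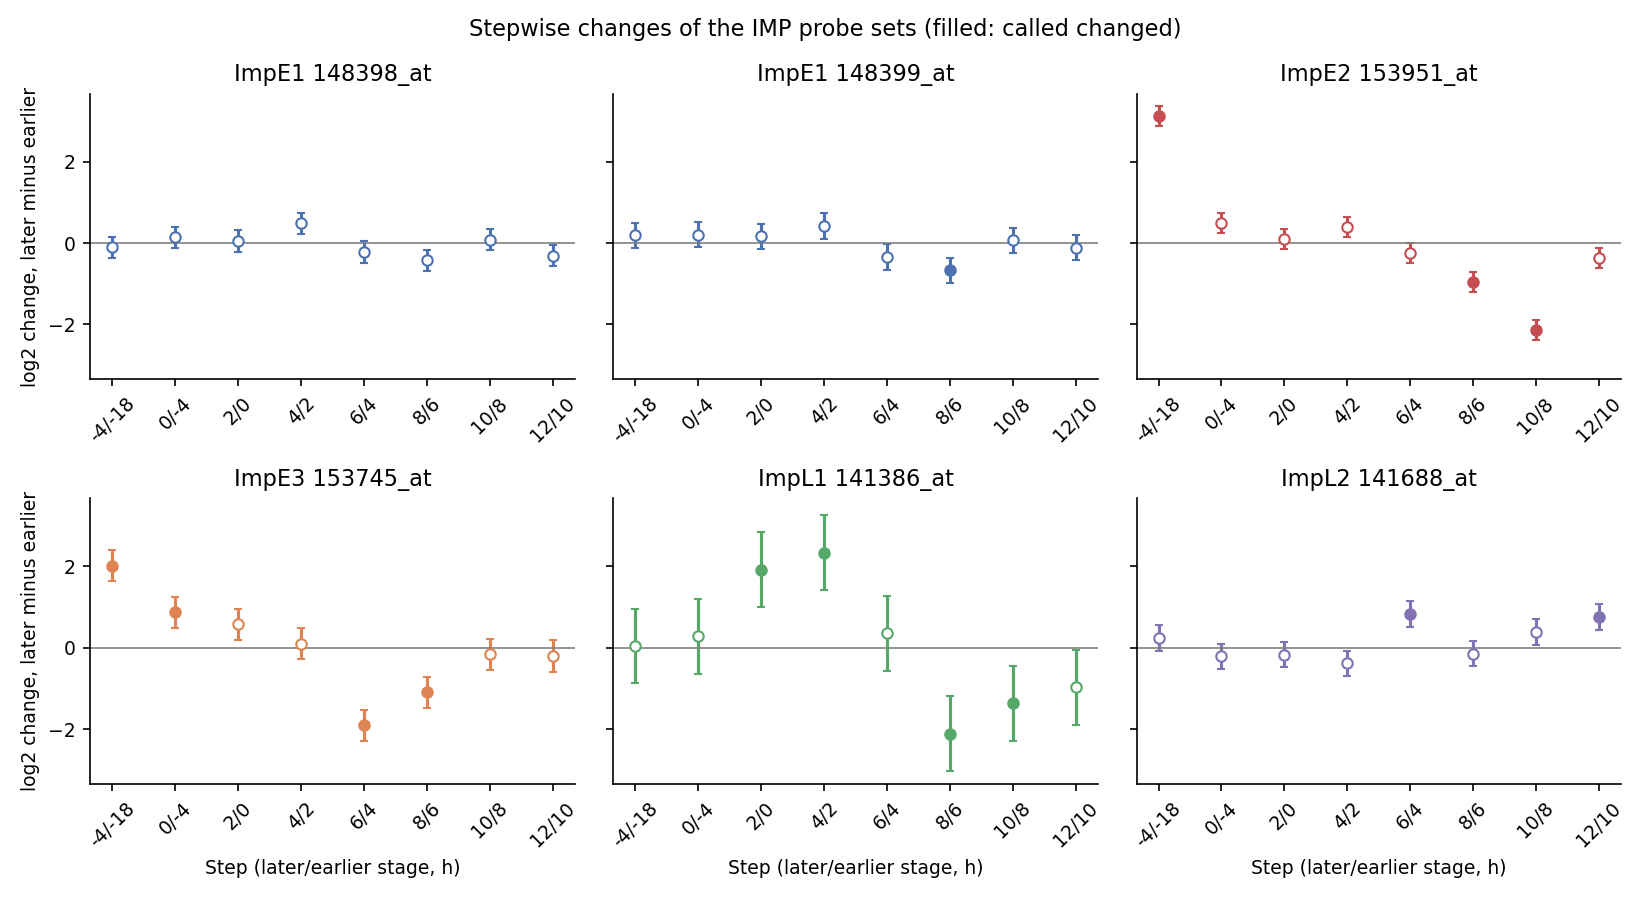
Log2 change of each tested probe set at each of the 8 steps, later minus earlier stage. Bars are 95% confidence intervals of the limma fit and filled points mark called changes. Called increases of *ImpE2* and *ImpE3* stand at the first step, those of *ImpL1* at 2 and 4 h, and 4 probe sets have called decreases at 8 h.

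Wider intervals separated the members further. At 6 h against 0 h, 2 of 6 were called against 11.1% of all probe sets (4.60% higher, 6.48% lower), with *ImpL1* 24.4-fold higher and *ImpE3* 2.36-fold lower (adjusted p = 2.3e-05). At 12 h against -18 h, 1 was called, *ImpL2*, against 29.1% (17.4% higher). The *ImpE2*, *ImpE3* and *ImpL1* log2 changes over the whole course were 0.37 (adjusted p = 0.014), 0.18 (0.43) and 0.47 (0.39), none reaching both limits.

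The design also holds both hormone pulses, and the change across the late larval pulse (-4 h against -18 h) was set against that across the prepupal pulse (10 h against 6 h). At 10 h against 6 h, 4 of 6 members fell, against 9.45% of all probe sets called and 4.67% called lower. *ImpE2* was 8.62-fold lower (adjusted p = 2.8e-15), *ImpL1* 11.2-fold (2.7e-06), *ImpE3* 2.39-fold (2.1e-05) and *ImpE1* 148399_at 1.52-fold (0.0066). The call of 148399_at lies at the fold limit and was lost without 6 h replicate 3 (log2 change -0.55), without 10 h replicate 3 (-0.57), and on log2 of the value plus 16 (-0.58). All 4 had called decreases at 8 h against 6 h already. At 10 h against 8 h *ImpE2* and *ImpL1* alone were called lower. *ImpE3* was then 1.12-fold lower (adjusted p = 0.83) and *ImpE1* 148399_at 1.05-fold higher (0.95), neither called. The intervals across the pulses also differ in length. The part of the hormone in these changes was not tested.

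The difference between the changes was tested directly, as late larval minus prepupal, over 4 stages that share no array. It was called for 4 of 6 probe sets, against 22.1% of all. For *ImpE2* the log2 change was 3.11 across the late larval pulse and -3.11 across the prepupal pulse, a difference of 6.22 (95% confidence interval 5.87 to 6.57, adjusted p = 1.4e-17). The changes of *ImpE3* were 2.02 and -1.26, and the difference was 3.27 (2.73 to 3.82, adjusted p = 1.9e-09). Both genes thus moved in opposite directions across the intervals.

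*ImpL1* changed by 0.04 and -3.48, a difference of 3.52 (2.22 to 4.82, adjusted p = 0.00018), with no called change across the first interval. Without -18 h replicate 2 and -4 h replicate 1 the difference was 3.54 (adjusted p = 7.8e-10). *ImpE1* 148399_at changed by 0.19 and -0.60, a difference of 0.79 (0.36 to 1.23, adjusted p = 0.0077). For 148398_at the difference of 0.23 was not called (-0.14 to 0.60, adjusted p = 0.39). *ImpL2* changed by 0.24 on both sides, and the interval of its difference was -0.43 to 0.44 (adjusted p = 0.99).

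**Figure D5:**
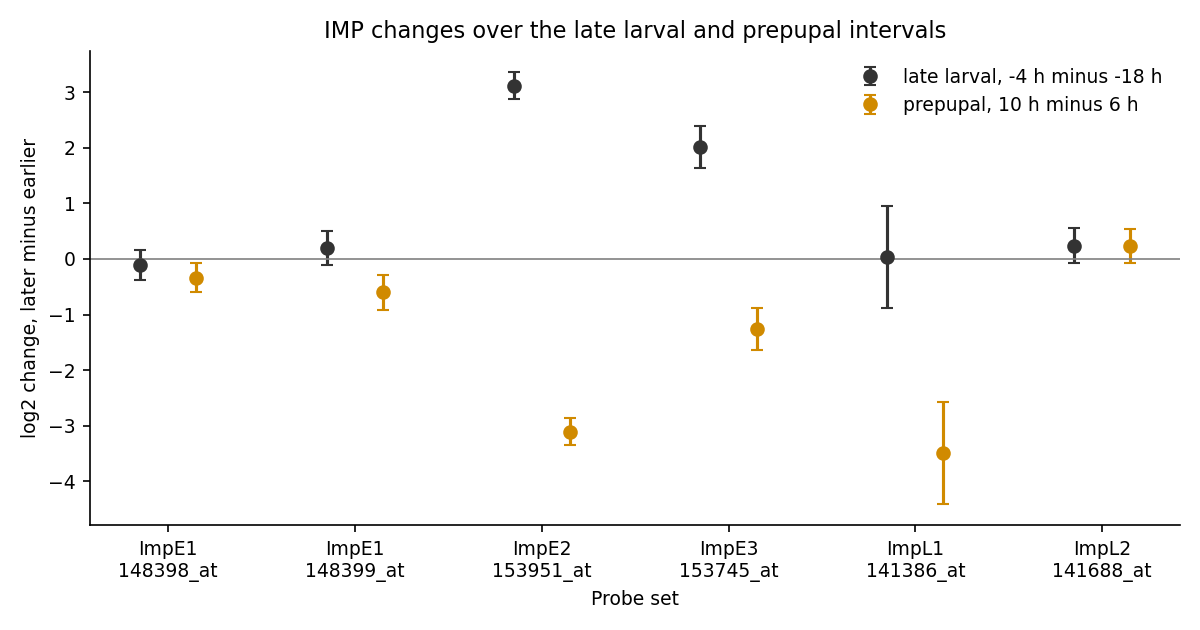
Log2 changes across the late larval pulse (-4 h against -18 h) and the prepupal pulse (10 h against 6 h) for the 6 tested probe sets, with 95% confidence intervals. *ImpE2* stands at 3.11 and -3.11, *ImpL1* at 0.04 and -3.48, and *ImpL2* at 0.24 in both.

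The levels themselves also differed between the later stages of these intervals, at which no hormone titer was measured. At 10 h against -4 h, 3 of 6 members were called, against 14.3% of all probe sets (6.84% higher, 7.41% lower). *ImpE2* was 5.15-fold lower (adjusted p = 2.2e-13) and *ImpE3* 3.09-fold lower (adjusted p = 3.3e-07) at 10 h. *ImpL1* was 2.65-fold higher (adjusted p = 0.025), but the arrays overlapped through -4 h replicate 1. Its call was lost without -4 h replicate 2 (log2 change 1.02, adjusted p = 0.12), without -4 h replicate 3 (1.12, 0.11) and in a fit to the 6 arrays alone (0.17). Without both arrays that stood apart the log2 change was 2.07 (adjusted p = 1e-08).

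Levels of receptor and early genes of the 20E response are given as a description, since no hormone titer was measured. Each gene here and in the gene lists below was read from a single probe set. A course given here is that of the probe set, and was not compared with any other probe set of the gene. *EcR*, which encodes the ecdysone receptor, had the highest mean of its probe set at -18 h, 836 ± 103 (SD, n = 3). It lay between 509.7 and 614 at all later stages. Its partner *usp* had stage means of 39.7 to 124, with the larval means below the floor. The early gene *br*, which encodes zinc finger transcription factors, was highest at -4 h with 589.8 ± 103 (SD, n = 3). Its differences from -18 h and from 0 h were both short of the 1.5-fold limit. No change of *EcR*, *usp* or *br* was called at -4 h against -18 h or at 0 h against -4 h. The competence factor *ftz-f1* averaged 458 ± 248 at 6 h, 1236 ± 105 at 8 h and 259 ± 22.7 at 10 h (SD, n = 3 each). Its highest stage, 8 h, was the one at which 4 IMP probe sets fell. Lactate dehydrogenase, the gene known as *IMP-L3* in older work, was not analysed here.

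Of 15 regulators of the 20E response, 13 were measured, and 5 rose at -4 h against -18 h (median log2 change 0.53, all probe sets 0.01), against 9.86% of all called higher. Among them *Sox14*, a transcription factor, rose 4.64-fold (adjusted p = 4.3e-14) and *Eip78C*, a nuclear receptor, 9.58-fold (adjusted p = 6.8e-14), at the step of the *ImpE2* and *ImpE3* increases. At 10 h against 8 h, 2 rose and 1 fell (median 0.26), against 5.41% of all called. *Sox14* was then 3.98-fold higher (adjusted p = 3.5e-13) and *ftz-f1* 4.77-fold lower (adjusted p = 2.1e-05), while *ImpE2* and *ImpL1* fell.

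Other genes of disc eversion were counted from a list of 21, of which 16 were measured. At -4 h against -18 h 3 rose (median 0.30), against 9.86% of all called higher, and among them *bsk*, the Jun kinase, rose 1.76-fold (adjusted p = 0.0024) and *Jra*, the fly Jun, 1.53-fold (adjusted p = 0.00095). At 4 h against 2 h, when the E genes reached their highest means, 2 rose (median 0.25; 1.49% of all called higher), *Sb*, a transmembrane serine protease needed for leg and wing eversion, 2.11-fold (adjusted p = 8.7e-05) and *vkg*, a type IV collagen chain, 1.59-fold (adjusted p = 0.056). At 8 h against 6 h 2 rose and 1 fell (median 0.05; 5.26% of all called). *Timp*, a metalloproteinase inhibitor, was then 2.11-fold higher (adjusted p = 0.00012) and *Np*, another serine protease, 1.72-fold lower (adjusted p = 0.00024). At 10 h against 8 h 3 fell (median -0.16; 3.38% of all called lower), with *Sb* 3.66-fold lower (adjusted p = 1.1e-08) and *Timp* 1.60-fold lower (adjusted p = 0.014).

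For *ImpL2* a list of insulin pathway genes and of insulin-like or relaxin-like peptides was counted, with 10 of 20 listed genes measured. At 12 h against 10 h 1 was called (all probe sets 4.88%), *Ilp8*, a relaxin-like peptide that discs secrete, which fell to 389.9 ± 7.83 in pupae, against 1794 ± 243 at 10 h (SD, n = 3 each; 4.57-fold, adjusted p = 3.1e-14). At 12 h against -18 h 4 rose and 1 fell (median 0.10), against 29.1% of all probe sets called and 17.4% called higher. Of the 4, *InR*, the insulin receptor, rose 1.77-fold (adjusted p = 0.00022) and *Pdk1*, a kinase below it, 2.06-fold (adjusted p = 0.00052).

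Imaginal disc markers were measured for 7 of 10 genes, and 3 of them (*vg*, *ap* and *dpp*) had stage means below the floor at -18 h. Their summed intensity was 1486 to 2109 in the 6 larval arrays and 1416 to 1905 in the 21 later ones. At the first step 1 was called, *vg*, at 108 units at -4 h and 47.7 at -18 h (adjusted p = 0.048). At the other 7 steps 0 of 49 marker tests in limma were called, with 2 at an unadjusted p under 0.05. At 12 h against -18 h 2 of 7 were called higher and 1 lower, against 29.1% of all probe sets called. Of these *vg* averaged 234 at 12 h and 47.7 at -18 h (adjusted p = 1.5e-05), *dpp* 139.5 and 37.6 (0.04) and *ct* 299 and 544 (0.055). The SD of *ct* at -18 h was 329, and that stage holds 1 of the arrays that stood apart. The part of disc content in the IMP courses was not tested.

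Markers of other tissues changed across the same steps. At -4 h against -18 h, 4 of 5 midgut, 4 of 4 muscle and 2 of 6 hemocyte markers fell, and 1 of 6 nervous system markers rose. Over all 12854 tested probe sets 470 were called lower and 1267 higher at this step. At 0 h against -4 h 4 of 6 salivary gland glue genes, 5 of 5 midgut, 2 of 4 muscle and 1 of 6 hemocyte markers fell. Of all probe sets 434 were called lower there. Summed midgut markers were 24053 to 33893 at -4 h and 64639 to 65998 at -18 h. At 8 h against 6 h, the step at which 4 IMP probe sets fell, no midgut, salivary gland, fat body, nervous system or hemocyte marker was called (2 of 27 at an unadjusted p under 0.05), and 1 of 4 muscle markers rose. Of all probe sets 5.26% were called at this step. The part of tissue composition in the IMP courses was not tested.

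The genes whose 9 stage means were most like those of each member were picked by Pearson's r among 3186 probe sets with at least a 2-fold range. The values are descriptions, since the 9 points share their arrays and the animals' stage. For *ImpE2* they were *Irp-1B*, an iron regulatory protein (r = 0.989), *Tapdelta*, of the translocon-associated complex (0.976), *CG8860* (0.974), *Sec61beta*, of the endoplasmic reticulum translocation channel (0.973) and *CG8117* (0.968). For *ImpE3* they were *Tpst*, a protein tyrosine sulfotransferase (0.978), the nuclear receptor *Hr3* (0.973), *CG7924* (0.973), *OstDelta*, an oligosaccharyltransferase subunit (0.973) and *PGRP-SB2*, a peptidoglycan recognition protein (0.972).

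*ImpL1* was most like *Mid1* (0.977), the potassium channel gene *Ork1* (0.969), *Papss*, which makes the sulfate donor for sulfation (0.967), *flz* (0.966) and *ClpP*, a protease subunit (0.962). For *ImpL2* the coefficients were lower, with the cuticle protein gene *Cpr72Ea* (0.894), the channel gene *TrpA1* (0.893), *Elovl7*, a fatty acid elongase (0.890), *Cda5*, a chitin deacetylase (0.879) and *Oatp30B*, a transporter (0.878). All 5 of these had their highest mean at 12 h, which follows largely from picking them by likeness to *ImpL2*, itself highest then. The *ImpE1* probe sets shared none of their 5, with *CG13631* (0.955) first for 148398_at and *CG8420* (0.962) first for 148399_at. With Spearman's rho 0 or 1 of the 5 genes of each member were again among its first 5, and over the 27 arrays 1 or 2.

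Among the members themselves the stage means of *ImpE2* and *ImpE3* correlated with r = 0.85 and those of *ImpE3* and *ImpL1* with r = 0.36, over the same 9 stages. The remaining pairs without *ImpL2* lay between 0.59 and 0.90.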

How the data were processed

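The study hybridised whole-animal RNA of 9 stages to 27 Affymetrix Drosophila Genome arrays, 3 per stage. The deposited values are linear intensities per probe set that the authors computed with dChip (1.2), which normalizes arrays and fits a probe model over all of them. The sources used here do not say whether mismatch probes entered. Gene symbols came from the platform annotation, in which 12443 of 13966 probe sets had 1 symbol, 327 several and 1196 none, and 12394 probe sets matched a RefSeq gene of Release 6.

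Intensities were floored at 60.26 and taken to log2. Testing required that every array of some stage exceeded the floor (12854 probe sets tested, 1112 not). limma (3.58.1, R 4.3.3) was fitted to the 27 arrays together, with the stage as factor (18 residual degrees of freedom). P-values were adjusted by Benjamini-Hochberg over all tested probe sets, and calls needed an adjusted p under 0.1 and 1.5-fold. These limits were taken from the study's methods, which applied another test, significance analysis of microarrays. The methods state the 1.5-fold limit for the gene sets of *EcR* RNA interference, so the calls here are not the study's own. The limma fit was also run on simulated data with independent normal noise of the same spread in all arrays of a probe set. That setting holds no arrays that stand apart, so the run cannot show how the fit deals with them. Figures were drawn with matplotlib (3.10.9). The precision is limited by 3 arrays per stage, which the methods describe as independent experiments.

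Members and gene lists were chosen with earlier results of these data known. Genes named are all members, the 5 probe sets most like each in stage means, the 2 genes of lowest adjusted p in a list and comparison, and *EcR*, *usp*, *br* and *ftz-f1*. Deviations of same-numbered arrays from their stage means correlated between -0.824 and 0.631, with medians of 0.386, 0.0822 and -0.0336 for numbers 1, 2 and 3 and 28, 15 and 14 of 36 pairs over 0.1. Not every pair exceeded 0.1, and the numbers were not taken to pair the samples. Deviations are taken from the stage mean, so an array that stands apart shifts the others of its stage the opposite way. The correlations thus cannot decide whether same-numbered samples belong together. Alternatives were quantile or median scaling, another floor, a pseudocount of 16, no filter, array weights, a replicate block, fits to the compared stages alone, and leaving out arrays.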

Additional observations from a re-analysis of the deposited data

Results flagged for a closer look

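The change across the late larval pulse (-4 h against -18 h) minus that across the prepupal pulse (10 h against 6 h) was called in limma for 4 of 6 probe sets, against 22.1% of all tested probe sets. The log2 difference was 6.22 for *ImpE2*, 3.27 for *ImpE3*, 3.52 for *ImpL1* and 0.79 for *ImpE1* 148399_at. In *ImpE2* and *ImpE3* the change was an increase across the first interval and a decrease across the second, while for *ImpL1* and *ImpE1* 148399_at the decrease alone was called. All 4 had called decreases at 8 h against 6 h (1.55% of all probe sets called lower). At 10 h against 8 h *ImpE2* and *ImpL1* alone were called (3.38% of all called lower).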

How the results depend on the processing

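Of 34 called results for single members, 30 kept direction and call in every alternative run, 4 lost the call in some, and none changed sign. The 4 were *ImpE3* at 0 h against -4 h, *ImpL1* at 10 h against 8 h and at 10 h against -4 h, and *ImpE1* 148399_at at 10 h against 6 h, with their values in the report. Of 50 results not called, 4 gained a call and 8 changed sign. The cause was not tested.

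The number of members called at 0 h against -4 h (1) was 2 with array weights, 2 without both arrays that stood apart, and 0 in a fit to the 6 arrays of those stages. At 2 h against 0 h (1) it was 2 under quantile normalization and with array weights, and 1 to 2 with 1 array left out (2 without 2 h replicate 2). At 10 h against 8 h (2) it was 1 under quantile normalization, 1 with no filter, and 1 in each fit without 1 array. At 12 h against 10 h (1) it was 2 with array weights, without both arrays that stood apart, and in the fit to those stages alone. At 12 h against -18 h (1) it was 2 with array weights and without both arrays, and 1 to 2 with 1 array left out (2 without -18 h replicate 2). With the replicate number as a block, these counts were 1, 1, 2, 1 and 1, the same as without it, and the block moved no other count.

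Signs turned only in values that were not called. *ImpL1* at -4 h against -18 h (log2 0.04) was -0.10 under quantile normalization, -0.016 with a common median, -0.030 with array weights, and -0.63 to 0.72 with 1 array left out. *ImpL2* at that step (0.24) was -0.064 under quantile normalization, and *ImpE1* 148398_at (-0.11) was -0.24 to 0.0039 with 1 array left out, the highest without -4 h replicate 3. *ImpL1* at 0 h against -4 h (0.28) was -0.10 to 0.95 with 1 array left out, with -0.10 without -4 h replicate 2 and -0.0064 without -4 h replicate 3. *ImpE3* at 4 h against 2 h (0.10) was -0.080 to 0.21 with 1 array left out, the lowest without 2 h replicate 2. *ImpE1* 148399_at at 12 h against -18 h (-0.08) was 0.074 with array weights, 0.10 without both arrays that stood apart, and -0.18 to 0.10 with 1 array left out, the highest without -18 h replicate 2. The pulse difference of *ImpL2* (0.0047) was -0.23 under quantile normalization, -0.044 with a common median, -0.041 with array weights, -0.017 without both arrays, and -0.14 to 0.12 with 1 array left out (lowest without 6 h replicate 1). That of *ImpE1* 148398_at (0.23) was -0.0030 with array weights.

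Over all probe sets the calls at -4 h against -18 h (1737) were 581 in the fit to those stages alone and 2881 without -4 h replicate 1. At 0 h against -4 h (1026) they were 470 in such a fit, 646 without both arrays, and 559 to 2156 with 1 array left out. Calls of the pulse difference (2843) were 4373 with array weights.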
